A study of Bos taurus with 6 samples.

Results

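The cholesterol and fatty acid synthesis genes are 28 genes of lipid synthesis, from the first steps of the mevalonate pathway to the fatty acid desaturases, together with the sterol sensor INSIG1 and the SREBP transcription factors. They were taken by symbol from a table of 20958 genes, by a rule that used no measured value but was written with earlier results of these data known, and all 28 were present and abundant enough to test. RNA was sequenced from cells of BEND, an established epithelial line from cow endometrium grown in medium with fetal bovine serum. In 3 libraries the cells had been transfected with a bta-miR-200b mimic, a synthetic duplex that supplies the mature microRNA, and in 3 with a negative-control mimic, called NC here. The labels mark the first group as microRNA overexpression and the second as control, give cell apoptosis as the treatment of both, and name neither a dose nor a time. Whether the replicates were separate cultures is not stated, and the spread behind the p-values may therefore be technical.

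Library totals ran from 19212694 to 21129547 gene counts, and no gene of the 28 had fewer than 443 reads summed over the libraries of a group. Of the markers of epithelial cells, KRT8, KRT18 and KRT19 were abundant in every library, CLDN4 and GRHL2 had no reads in any, and the fibroblast collagen genes COL1A1 and COL1A2 were also abundant. Values are CPM, reads scaled to a common library size, and are not corrected for gene length, so levels are compared between libraries and not between genes.

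Cells make cholesterol from acetyl-CoA through mevalonate, squalene and lanosterol, and make palmitate from the same precursor through malonyl-CoA. Both routes are driven by SREBP factors, which sit in the endoplasmic reticulum membrane. When sterols are scarce the escort protein SCAP carries them to the Golgi, where proteases free the part that enters the nucleus, and when sterols are plentiful INSIG proteins hold SCAP back. SREBF2 mainly serves the sterol genes and SREBF1 the fatty acid genes. In the endometrium, lipids made or taken up by the epithelium feed prostaglandin synthesis and membrane growth.

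Most of the 28 genes stood close to their NC level in the mimic libraries. In edgeR's quasi-likelihood test, with p-values adjusted by Benjamini-Hochberg over all genes, 2 were higher, TM7SF2 and FASN, and 0 were lower, while 26 did not pass an adjusted p of 0.05. Over the 12217 genes tested, 4.3% were higher and 2.15% lower, 6.45% in all, which is near the 7.14% of these 28. At an unadjusted p under 0.05 the count was 4, or 14.3%, against 18.5% of all tested genes. The median log2 fold change of the 28 was 0.02, against 0.00 over all genes tested, with 17 above 0 and 11 below. For 23 of the 26 genes that did not pass, the 95% interval of the fold change lay within 0.8 to 1.25. The widest reach downwards was 0.78-fold, for FADS2, and the widest upwards 1.29-fold, for ACACA. These are bulk libraries, in which fewer cells of a type and less RNA per cell cannot be told apart.

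**Figure D1:**
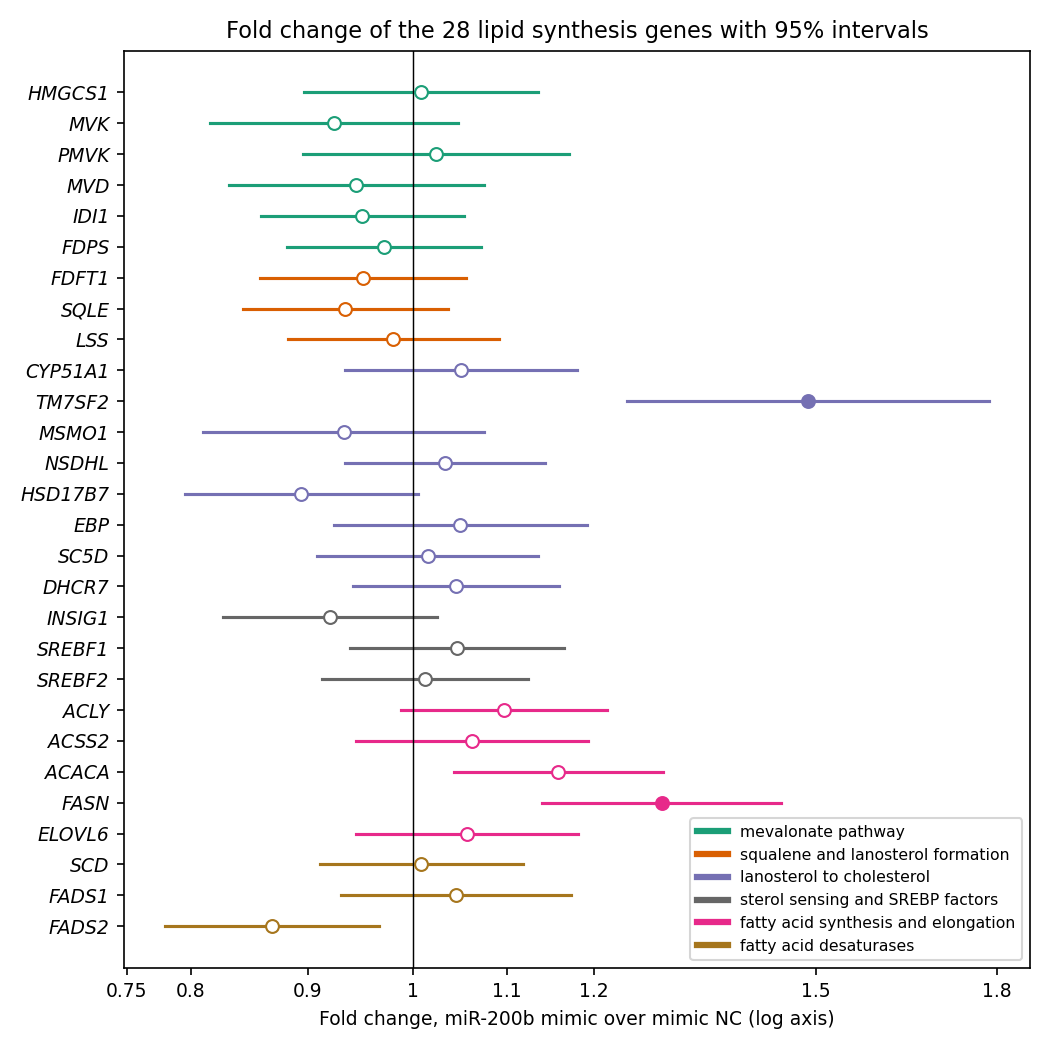
Fold change of each gene in miR-200b mimic over mimic NC libraries (log axis), with its 95% interval from edgeR, coloured by role; filled points passed an adjusted p of 0.05. TM7SF2, at 1.49-fold, and FASN, at 1.28-fold, are the filled points, and 23 of the 28 genes had an absolute log2 fold change under 0.15.

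The SREBP factors and the protein that retains them regulate the other genes, and none of the 3 passed the test. SREBF2, the sterol-route factor, had 306, 262 and 297 CPM in mimic replicates 1 to 3, against 278, 277 and 299 CPM in NC replicates 1 to 3. SREBF1, the fatty acid route factor, had 123, 105 and 107 CPM in mimic libraries, against 105, 108 and 108 CPM in NC libraries. INSIG1, itself a known SREBP target, had 96.6, 89.0 and 93.3 CPM in mimic libraries, against 102, 93.3 and 108 CPM in NC libraries. The groups overlapped for all 3 genes, with SREBF1 highest in mimic replicate 1 and INSIG1 highest in NC replicate 3. The fold changes were 1.01 for SREBF2, with a 95% interval of 0.913 to 1.12, 1.05 for SREBF1, with 0.939 to 1.16, and 0.92 for INSIG1, with 0.826 to 1.03. In the annotation SREBF1 overlaps RAI1, and both SREBF genes hold a microRNA gene of the miR-33 family, whose mature product an mRNA library does not capture.

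Among the fatty acid synthesis and elongation genes, all 5 had a log2 fold change above 0, compared with 50.3% of all tested genes, and 1 passed the test. Each of the 5 also stayed above 0 under all 13 alternatives tried, which refit the same libraries and are not independent of the main test. Of 10 tested genes annotated to fatty acid biosynthesis, FASN and ACACA among them, 4 were above 0 and 6 below. Their median log2 fold change was −0.04. FASN, the multifunctional enzyme that builds palmitate, had 724, 626 and 578 CPM in mimic libraries, against 454, 488 and 559.5 CPM in NC libraries. The groups did not overlap, but mimic replicate 3 stood only just above NC replicate 3. FASN averaged 643 ± 74.5 CPM with the mimic and 500.5 ± 54.0 CPM with NC (SD, n = 3 each), and its log2 fold change was 0.36 with an SE of 0.08 (edgeR adjusted p = 0.00888). The FASN call was lost in the fits without replicate 1 of either group. Without mimic replicate 1 its log2 fold change was 0.27 (edgeR adjusted p = 0.0725), and without NC replicate 1 it was 0.29 (edgeR adjusted p = 0.0985). Those fits called 5.44% and 2.98% of the genes they tested, against 6.45% in the main test. Over 13 alternatives FASN was above 0 in 13 and called in 11, with log2 fold changes of 0.27 to 0.45 and adjusted p-values (edgeR, DESeq2 or limma) from 3.47e-06 to 0.0985.

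ACACA, acetyl-CoA carboxylase alpha, supplies FASN with malonyl-CoA in the committed step of the route. It had 138, 137 and 136 CPM in mimic libraries, against 116.5, 109 and 129 CPM in NC libraries. The groups did not overlap, with NC replicate 3 the nearest to the mimic values. The log2 fold change was 0.21 ± 0.07 and the edgeR adjusted p was 0.095, so ACACA did not pass, although it did without NC replicate 3, at 0.28 (edgeR adjusted p = 0.0492). ACACA overlaps C19H17orf78 and uncharacterised loci in the annotation. ACLY, which makes cytosolic acetyl-CoA from citrate, had 159, 154 and 146 CPM in mimic libraries, against 131, 138.5 and 149 CPM in NC libraries. Its groups overlapped, mimic replicate 3 lying below NC replicate 3, and the edgeR adjusted p was 0.344. ACSS2, which makes acetyl-CoA from acetate, averaged 54.3 ± 4.15 CPM with the mimic and 51.1 ± 2.86 CPM with NC (SD, n = 3 each), and ELOVL6, which lengthens palmitate, averaged 65.3 ± 4.71 CPM with the mimic and 61.8 ± 2.35 CPM with NC.

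Summed over these 5 genes, the level was 1138, 1031 and 988 CPM in mimic libraries, against 814, 845 and 954 CPM in NC libraries. Without FASN, the other 4 genes summed to 413, 405 and 410 CPM in mimic libraries, against 361, 357 and 394 CPM in NC libraries. Both sums were higher in every mimic library than in any NC library, and in both NC replicate 3 came closest to the mimic group. These sums were formed after the single values had been seen and carry no test.

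**Figure D2:**
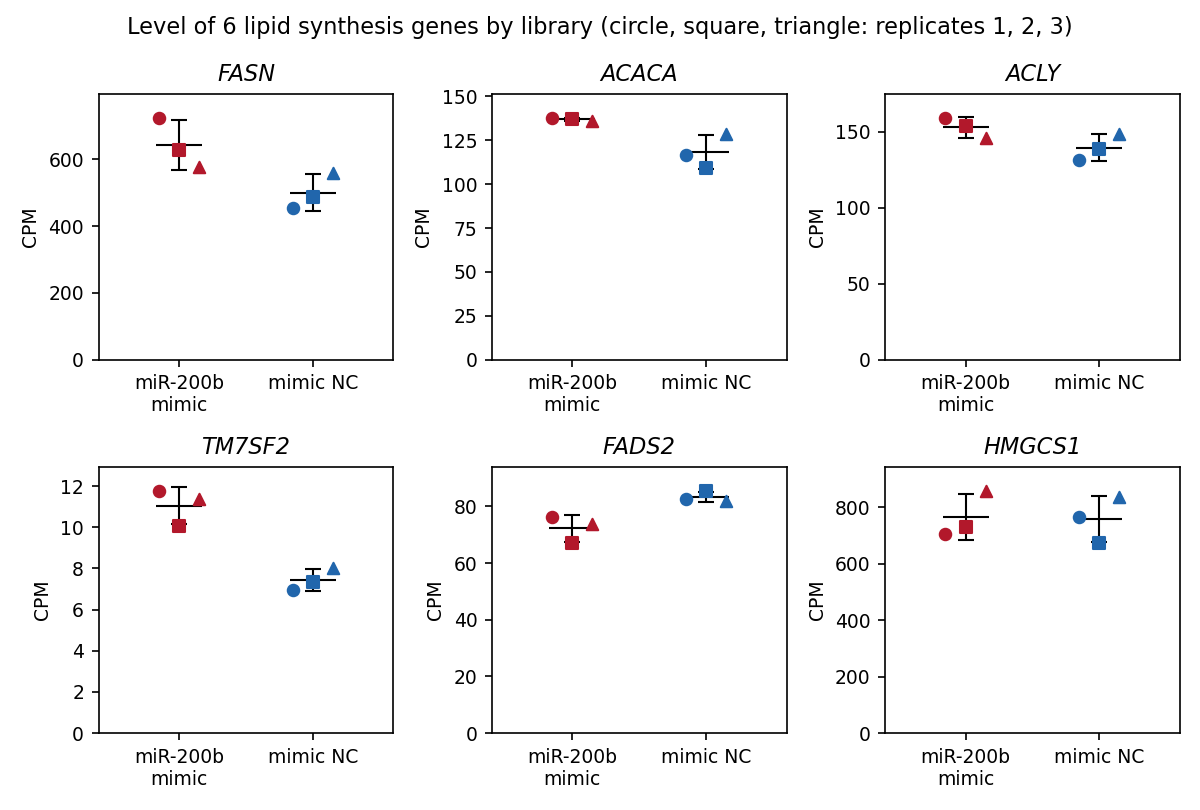
CPM of FASN, ACACA, ACLY, TM7SF2, FADS2 and HMGCS1 in each library, with the mimic group on the left of each panel; bars give the mean ± SD of 3 libraries and every axis starts at 0. The groups are apart for FASN, ACACA and TM7SF2, with the mimic higher, and for FADS2, with the mimic lower, and overlap for ACLY and HMGCS1.

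The desaturases put double bonds into fatty acids. SCD, the delta-9 desaturase that makes oleate, had 287, 293 and 324 CPM in mimic libraries, against 285, 292 and 319 CPM in NC libraries. Same-numbered libraries had nearly the same SCD level, and the fold change was 1.01, with a 95% interval of 0.911 to 1.12. FADS2, the delta-6 desaturase of polyunsaturated fatty acid synthesis, had 76.4, 67.1 and 73.7 CPM in mimic libraries, against 82.7, 85.4 and 82.1 CPM in NC libraries. Every mimic library was below every NC library, with a log2 fold change of −0.20 ± 0.07, but the edgeR adjusted p was 0.117 and FADS2 passed under 0 of 13 alternatives. FADS1, the delta-5 desaturase, averaged 59.8 ± 2.57 CPM with the mimic and 57.3 ± 4.92 CPM with NC (SD, n = 3 each). FADS1 and FADS2 overlap each other in the annotation, and whether the counting used strand is not stated, so their reads may not be fully separated.

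Values kept the groups apart in 4 of the 28 genes, or 14.3%, against 21.8% of all tested genes. In FASN, ACACA and TM7SF2 all mimic values lay above all NC values, 3 of 28 where 11.4% of all tested genes did, and FADS2 was the 1 gene with all mimic values below, where 10.4% of all tested genes did.

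The 6 mevalonate genes lead from acetyl-CoA units to farnesyl diphosphate, and none passed the test. HMGCS1, which makes HMG-CoA, had 706, 731 and 857 CPM in mimic libraries, against 766, 672 and 836 CPM in NC libraries. It was highest in mimic replicate 3 and NC replicate 3, and the groups overlapped almost fully, with a fold change of 1.01 and a 95% interval of 0.896 to 1.13. MVK, which phosphorylates mevalonate, averaged 41.5 ± 4.31 CPM with the mimic and 44.9 ± 1.82 CPM with NC. PMVK, the next kinase, averaged 24.0 ± 1.87 CPM with the mimic and 23.5 ± 0.549 CPM with NC. MVD, the decarboxylase that yields isopentenyl diphosphate, averaged 49.3 ± 6.83 CPM with the mimic and 52.2 ± 1.74 CPM with NC, and was lowest in mimic replicate 3. IDI1, the isomerase of isopentenyl diphosphate, averaged 119.6 ± 4.43 CPM with the mimic and 125.8 ± 6.14 CPM with NC. FDPS, which condenses these units to farnesyl diphosphate, averaged 157 ± 4.14 CPM with the mimic and 162 ± 4.07 CPM with NC (SD, n = 3 each throughout). The log2 fold changes of the 6 ran from −0.11 for MVK to 0.03 for PMVK, with a median of −0.06.

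The 3 genes that turn farnesyl diphosphate into lanosterol all had log2 fold changes slightly below 0, and none passed; LSS was above 0 without mimic replicate 2 and without NC replicate 3. FDFT1, squalene synthase, averaged 209.7 ± 17.8 CPM with the mimic and 220.5 ± 7.15 CPM with NC. SQLE, the epoxidase that is a further control point of the route, had 292, 305 and 335 CPM in mimic libraries, against 330.5, 312 and 355 CPM in NC libraries. The SQLE groups overlapped, with NC replicate 3 highest and mimic replicate 1 lowest, and the fold change was 0.934, with a 95% interval of 0.843 to 1.04. LSS, which closes the sterol rings, averaged 108 ± 7.04 CPM with the mimic and 109.7 ± 4.91 CPM with NC (SD, n = 3 each throughout) and overlaps an uncharacterised locus.

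Of the 8 genes that turn lanosterol into cholesterol, 1 rose and 7 did not pass. TM7SF2, a sterol C14-reductase of the endoplasmic reticulum, had 11.8, 10.1 and 11.4 CPM in mimic libraries, against 6.95, 7.33 and 8.01 CPM in NC libraries. Every mimic library was above every NC library, and the gap between the groups exceeded the range within either. TM7SF2 averaged 11.1 ± 0.889 CPM with the mimic and 7.43 ± 0.538 CPM with NC (SD, n = 3 each), from 681 and 443 reads. This is a 1.49-fold difference with a 95% interval of 1.24 to 1.79, a log2 fold change of 0.57 ± 0.13 and an edgeR adjusted p of 0.00569. Over 13 alternatives the TM7SF2 log2 fold change was 0.52 to 0.64 and the adjusted p (edgeR, DESeq2 or limma) 0.000433 to 0.0524, with the call lost only without NC replicate 1. TM7SF2 had no overlapping neighbour in the annotation.

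The genes around TM7SF2 in the route did not pass the test. CYP51A1, which removes the methyl group at C14 just before the step of TM7SF2, had 91.8, 96.1 and 107 CPM in mimic libraries, against 98.5, 83.7 and 99.1 CPM in NC libraries. MSMO1, which oxidises the C4 methyl groups in the following steps, had 181, 210.3 and 258 CPM in mimic libraries, against 237, 215 and 244 CPM in NC libraries. HSD17B7, the ketosteroid reductase of C4 demethylation, had 72.4, 74.0 and 89.7 CPM in mimic libraries, against 88.2, 87.8 and 88.1 CPM in NC libraries. In MSMO1 and HSD17B7 mimic replicates 1 and 2 lay below all NC libraries and mimic replicate 3 above them. Without mimic replicate 3, MSMO1 fell by 0.24 on the log2 scale (edgeR adjusted p = 0.0441), and HSD17B7 fell by 0.27 (edgeR adjusted p = 0.0379). Over 13 alternatives this was the 1 setting in which either was called, and their adjusted p-values (edgeR, DESeq2 or limma) reached 0.958 for MSMO1 and 0.681 for HSD17B7.

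The remaining enzymes of the route stood near their NC level. NSDHL, a sterol dehydrogenase of C4 demethylation, averaged 99.5 ± 2.97 CPM with the mimic and 96.3 ± 1.26 CPM with NC. EBP, the sterol isomerase, averaged 39.5 ± 3.17 CPM with the mimic and 37.6 ± 2.89 CPM with NC. SC5D, the C5-desaturase, averaged 91.5 ± 7.58 CPM with the mimic and 90.1 ± 4.62 CPM with NC. DHCR7, the reductase that completes cholesterol, averaged 184 ± 15.5 CPM with the mimic and 176 ± 3.20 CPM with NC (SD, n = 3 each throughout). NSDHL overlaps a pseudogene and HSD17B7 an uncharacterised locus.

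For most of these genes more of the variance lay within the groups than between them. With 3 libraries a group, some share lies between the groups even where they do not differ. The median share of a gene's variance in log2 CPM that lay between the groups was 20.9% for the 28 genes, against 22.2% over all tested genes. More than 50% lay between the groups for 5 of the 28, namely TM7SF2 at 90.8%, FADS2 at 75.8%, ACACA at 70.9%, FASN at 65.8% and ACLY at 52.0%, or 17.9% of the genes against 25.1% of all tested genes. For SREBF2, HMGCS1 and SCD it was under 1%. Mimic replicates 1 and 3 each held the highest value of 10 of the 28 genes, NC replicate 3 of 5, NC replicate 2 of 2, mimic replicate 2 of 1 and NC replicate 1 of 0. NC replicate 1 held the lowest value of 8 genes and NC replicate 3 of 0. The highest library exceeded the lowest by 1.07-fold for NSDHL and by 1.69-fold for TM7SF2, the extremes of the list. Summed over the 17 sterol enzymes, the level was 2509, 2513 and 2786 CPM in mimic libraries, against 2663, 2498 and 2789 CPM in NC libraries. In both groups replicate 3 was the highest.

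**Figure D3:**
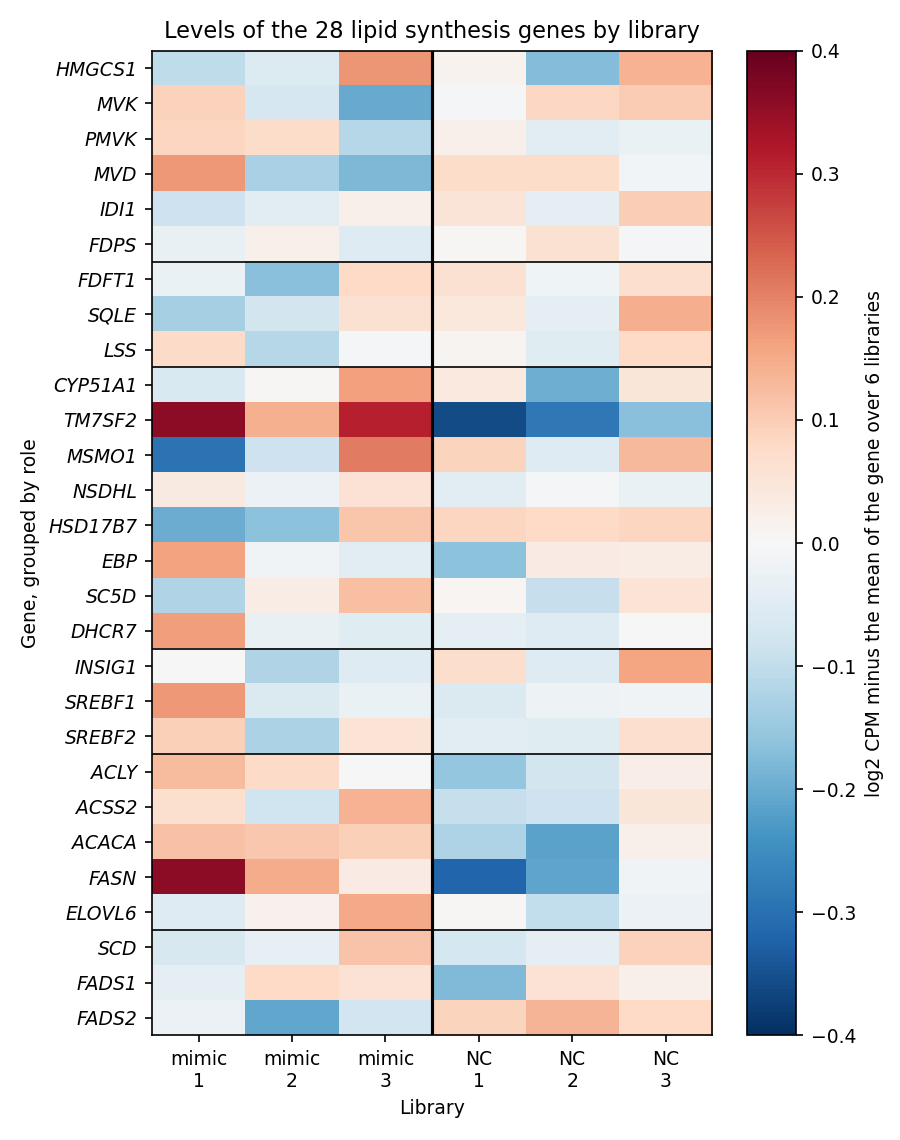
Each gene's log2 CPM in each library minus its mean over the 6 libraries (colour scale), with the 3 mimic libraries left of the vertical line, the 3 NC libraries right of it, and horizontal lines between roles. TM7SF2 and FASN are above their mean in all mimic and below it in all NC libraries, and FADS2 is the reverse. ACACA is above its mean in all mimic libraries and also in NC replicate 3, while HMGCS1, CYP51A1, MSMO1 and SC5D are highest in mimic replicate 3.

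Other genes of the same pathways gave few calls. Of 14 tested genes of sterol synthesis, uptake and SREBP processing outside the 28, 0 were called in edgeR's test, in DESeq2 and in limma-voom. With no filter on low counts, with the replicate block, without mimic replicate 3 or without NC replicate 2, 1 was called higher. In edgeR's test 2 had an unadjusted p under 0.05, and the median log2 fold change was 0.00. INSIG2, the paralog of INSIG1, stood at 0.24 ± 0.10 (edgeR adjusted p = 0.194). SCAP, the SREBP escort, averaged 112 ± 8.78 CPM with the mimic and 105 ± 3.17 CPM with NC (SD, n = 3 each).

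Of 20 tested genes of fatty acid synthesis, activation and elongation outside the 28, 2 rose, 0 fell and 18 did not pass, with a median of 0.03. The called share was 10%, against 6.45% of all tested genes. ELOVL7, an elongase of long-chain fatty acids, had 108, 126 and 130.1 CPM in mimic libraries, against 83.3, 76.8 and 88.5 CPM in NC libraries. Every mimic library was above every NC library, with a log2 fold change of 0.55 ± 0.08 and an edgeR adjusted p of 8.01e-05, and ELOVL7 was called under 13 of 13 alternatives. GPAM, which starts triglyceride synthesis on glycerol phosphate, had 19.7, 20.6 and 19.8 CPM in mimic libraries, against 15.5, 13.4 and 17.0 CPM in NC libraries. Its log2 fold change was 0.39 ± 0.11 (edgeR adjusted p = 0.0261), but the call was lost without mimic replicate 1, mimic replicate 2, NC replicate 1 or NC replicate 2, where the edgeR adjusted p was 0.0538, 0.119, 0.102 and 0.141. HACD1, a dehydratase of elongation, stood at 0.40 ± 0.17 (edgeR adjusted p = 0.182), and ELOVL5, an elongase of polyunsaturated fatty acids, at −0.12 ± 0.07 (edgeR adjusted p = 0.416). ELOVL7 overlaps a pseudogene in the annotation.

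Genes of fatty acid oxidation had log2 fold changes below 0 in 9 of 10 cases, against 49.7% of all tested genes, with a median of −0.13. None passed edgeR's test, DESeq2 or limma-voom, and 1 was called lower without mimic replicate 3. In edgeR's test 4 had an unadjusted p under 0.05, or 40%, against 18.5% of all tested genes. In HADHA, HADHB, EHHADH and ETFDH, enzymes of beta-oxidation and its electron transfer, every mimic value lay below every NC value. This held for 4 of the 10, against 10.4% of all tested genes. HADHA was not among the 4 with an unadjusted p under 0.05 in edgeR's test. HADHB, the beta subunit of the mitochondrial trifunctional protein, averaged 134 ± 2.64 CPM with the mimic and 149 ± 5.21 CPM with NC (SD, n = 3 each; edgeR adjusted p = 0.228). CPT1A, which admits fatty acids to mitochondria, averaged 231 ± 7.61 CPM with the mimic and 237 ± 8.81 CPM with NC. Of 5 tested genes of the liver X receptors and sterol efflux, 0 were called by edgeR, DESeq2 or limma-voom and 0 had an unadjusted p under 0.05 in edgeR's test, with the exporter ABCA1 at 5.22 ± 2.03 CPM with the mimic and 4.61 ± 0.957 CPM with NC.

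**Figure D4:**
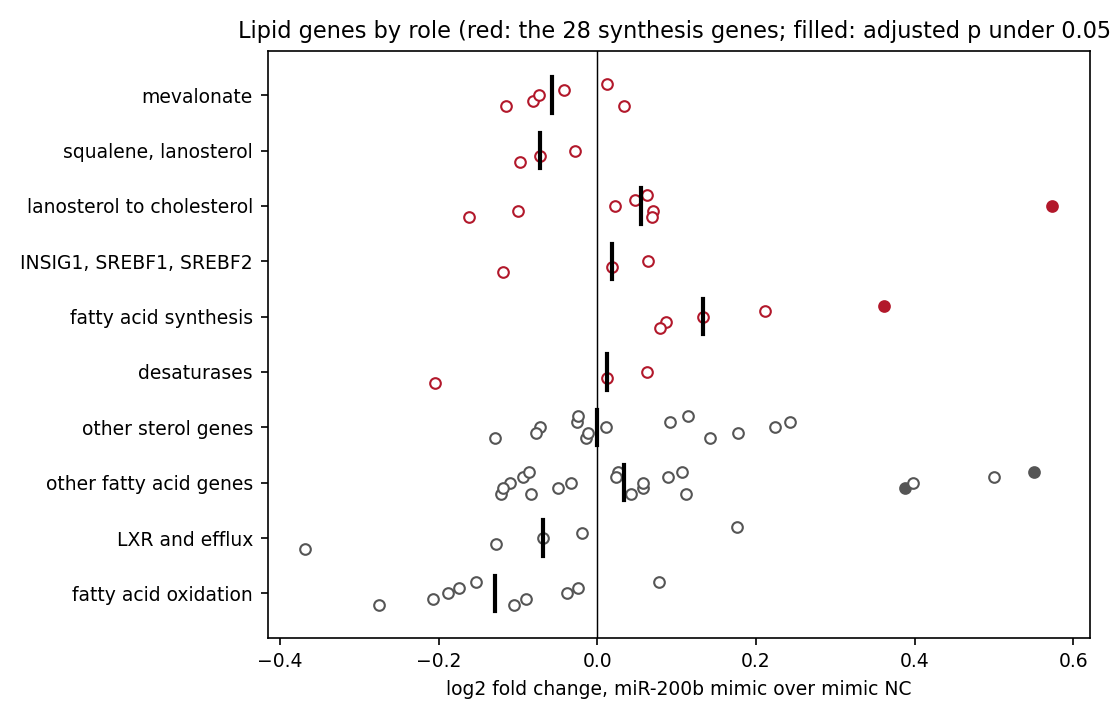
log2 fold change of each tested gene, mimic over NC, by role; red marks the 28 synthesis genes, grey the other lipid genes, filled points passed an adjusted p of 0.05 and black bars are list medians. The filled points are TM7SF2 and FASN among the 28, and GPAM and ELOVL7 outside them; the medians run from −0.13 for oxidation to 0.13 for fatty acid synthesis.

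Markers of other cell types and ribosomal protein genes were read from the same libraries. Over all tested genes, 4.3% were called higher and 2.15% lower. Of 10 epithelial markers 6 were tested and 5 rose, and the list summed to 10431 to 11853 CPM with the mimic and 8587 to 9304 CPM with NC. Of 8 fibroblast markers 3 fell, with sums that overlapped, at 20114 to 22878 CPM with the mimic and 21117 to 22846 CPM with NC. Adipocyte markers, of a cell type rich in FASN, summed to 25.9 to 35.9 CPM with the mimic and 45.7 to 65.0 CPM with NC. LEP had no reads in any library. Of 4 tested adipocyte markers 1 fell, FABP4, whose call was lost with no filter on low counts and without mimic replicate 1, mimic replicate 2 or NC replicate 3, where the edgeR adjusted p was 0.146, 0.0852, 0.054 and 0.0627. Leukocyte markers summed to 2.80 to 2.88 CPM with the mimic and 3.67 to 4.34 CPM with NC, with PTPRC, CD3E and LYZ at 0 throughout. Of 2 tested leukocyte markers 1 fell, CD14, by 0.71 on the log2 scale (edgeR adjusted p = 0.0409). The other, CD68, went the other way without passing, at 0.20 (edgeR adjusted p = 0.823). Endothelial markers summed to 2.98 to 3.52 CPM with the mimic and 5.05 to 6.30 CPM with NC. Of 2 tested 1 fell, PECAM1, by 0.93 on the log2 scale (edgeR adjusted p = 0.0146). The list of leukocyte markers had 0 called without mimic replicate 1, mimic replicate 2, NC replicate 1 or NC replicate 3 and in DESeq2 and limma-voom, and the endothelial list had 0 without mimic replicate 2, NC replicate 1 or NC replicate 3. All 16 ribosomal protein genes, listed for RNA quality but not a direct measure of it, had log2 fold changes below 0 and 2 fell. Their sums were 13404 to 14511 CPM with the mimic and 14399 to 15951 CPM with NC. The count of ribosomal protein genes that fell was 0 without mimic replicate 2 or NC replicate 1, and 1 without NC replicate 2. It was 4 in DESeq2 and without NC replicate 3, and 5 without mimic replicate 1. It was 5 under no low-count filter and 6 when replicate number was a block. In edgeR's test 11 of the 16 had an unadjusted p under 0.05, or 68.8%, against 18.5% of all tested genes. The count of fibroblast markers that fell ran from 1, without mimic replicate 2 or NC replicate 3, to 4. In the ribosomal sum NC replicate 3 was the lowest NC library and lay within the range of the mimic libraries, and in FASN it was the NC library nearest to them. The part of these values in the FASN, ACACA and TM7SF2 values was not tested.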

How the data were processed

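A single table of raw counts for 6 libraries, deposited by the authors, was used. Per the labels' protocols, TRIzol RNA went into stranded mRNA libraries. The submitters' processing notes name Trimmomatic, HISAT2 and HTSeq. Their versions, the build and annotation used, and how strand was set were not given in the sources. Groups and replicate numbers come from the sample titles.

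Genes passing edgeR's filterByExpr (minimum count 10, minimum total 15) numbered 12217. These were tested in R 4.3.3 with edgeR 4.0.16 (limma 3.58.1), by a two-sided quasi-likelihood F test with TMM factors of 0.983 to 1.01, robust dispersion and group as its only factor. P-values were adjusted by Benjamini-Hochberg over all genes, with 0.05 as the threshold. The code was tested on simulated data. SE was taken as log2 fold change over the root of F, and 95% intervals use the fit's t quantile. Sums and variances are descriptions (log2 of CPM plus 0.5). Overlapping neighbours come from a RefSeq gene table (ARS-UCD2.0), which held all 28 genes by GeneID. Alternatives were a block for replicate number, DESeq2 1.42.0, limma-voom, RLE or upper quartile scaling, a filter of 1 CPM in 3 libraries or none, and leaving out each library. The 28 genes and the lists were chosen with earlier results of these data known. The text names all 28, called genes of the other lists and up to 4 per list with the smallest p; SCAP, CPT1A, HADHA and the markers at 0 were added after their values were seen. A planned count of promoter motifs was not made, because no sequences were used here. Some genes of the other lists are not reported here.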

Additional observations from a re-analysis of the deposited data

How the results depend on the processing

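Among 364 fits of single genes (28 genes, 13 alternatives), 357 left the call as reported. The exceptions were the lost calls of FASN and TM7SF2 and the added calls of ACACA, MSMO1 and HSD17B7. When 1 library at a time was left out, 0 to 3 of the 28 genes were called higher and 0 to 2 lower. Over all genes these fits called 275 to 731 higher and 82 to 414 lower. The median log2 fold change of the 28 ran from −0.01 to 0.06 in them. No scaling, filter or other tool changed which of the 28 were called.

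Same-numbered libraries were not consistently alike. The correlations of their deviations from the group means were -0.0698, 0.157 and 0.231 over 12217 genes. The numbers were therefore not taken as pairs in the main test. Between differently numbered libraries the correlations ran from -0.364 to 0.214. A chi-square of counts per degree of freedom, lower for more similar libraries, was 8.55 between mimic replicate 3 and NC replicate 3. It was 22 between the replicates 1, 17.5 between the replicates 2, and 5.13 to 11.9 within groups. Whether replicate 3 of both groups shared a source of variation was not tested. With the replicate block, 816 genes were called higher and 496 lower, and among the 28 genes ACACA was added, at 0.21 (edgeR adjusted p = 0.0289). At this depth and with 3 libraries a group, differences of a few percent in a gene could not be told from 0.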
